A study of Caenorhabditis elegans with 18 samples.

Results

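The nuclear hormone receptors are transcription factors that carry a zinc-finger DNA-binding domain and, in most members, a ligand-binding domain for small lipophilic molecules. Caenorhabditis elegans holds a far larger set of them than insects or vertebrates do, and most of the extra members descend from an HNF4-like ancestor. A small number, such as nhr-23, nhr-25 and nhr-67, have clear counterparts in flies and mammals and act in moulting and development. Others, such as nhr-49 and nhr-80, control fat and energy metabolism, and for many members no function is known.

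The family was taken as every gene of the deposited expression table whose WormBase symbol is nhr- followed by a number, leaving out nhr-10, nhr-68 and nhr-114. These 3 belong to the propionate and vitamin B12 regulation that the series was built around. The rule gave 254 members among 20953 genes, and it used no measured value. All 254 were annotated as protein-coding.

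Whole animals at the L4 larval stage were profiled by RNA sequencing, about 3000 animals per library, in 18 libraries that form 9 groups of 2. Of the 3 genotypes, wild type was strain N2, the nhr-10 mutants carried the deletion allele tm4695, and the nhr-68 mutants were strain VC1527 with the deletion allele gk708. The 3 treatments were none, 20 nM vitamin B12, and the same dose of B12 combined with 40 mM propionate, for 48 hours according to the series' design text. All animals came from cultures kept on agar without vitamin B12 and synchronised over successive generations by arrest as starved L1 larvae, and the untreated libraries are named OP50, the standard Escherichia coli food. Vitamin B12 is the cofactor of the canonical propionate breakdown pathway, and propionate is a short-chain fatty acid that is toxic when it accumulates. The tm4695 and gk708 mutants are each represented by 1 line, and the labels do not say how much of either gene the deletion removes.

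Levels are in FPKM, fragments per kilobase of transcript and per a fixed number of mapped fragments, so levels of different genes can be set side by side per length. Differences are given on the scale log2(FPKM + 1) with their standard error (SE), which understates the change of weakly expressed genes. They were tested with limma in 1 fit over all 15575 genes that reached 1 FPKM in at least 2 libraries, and a gene was called at a Benjamini-Hochberg adjusted p under 0.05. Of the 254 members, 175 passed that filter and 79 did not, so the latter have levels but no test. The labels do not say whether the 2 libraries of a group came from separate cultures, so the p-values measure the spread between these libraries, which may be technical. RNA came from whole animals, so fewer cells expressing a gene and less RNA per cell cannot be told apart.

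The libraries summed to between 841999.6 and 920001.8 FPKM, and the spacing of low values put their depth at roughly 12700000 to 14300000 fragments. For a member with the family's median longest transcript, 1351 bases, 1 FPKM then stood for 17 to 19 fragments. Markers of intestine, moulting epidermis, sperm, oocytes, yolk, neurons and body wall muscle were present. The targeted genes followed the labels in direction. The transcript of nhr-68 was at 1.71 to 14.95 FPKM in the nhr-68 mutants against 48.69 to 108.25 in wild type and was called lower at all 3 treatments. That of nhr-10 was at 6.14 to 10.33 FPKM in the nhr-10 mutants against 12.23 to 33.45 in wild type, a difference that limma did not call at any treatment (adjusted p 0.166, 0.066 and 0.0518, in the order untreated, B12, B12 with propionate).

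The family was spread over all 6 chromosomes, with 160 members on V, 32 on IV, 23 on X, 19 on I, 13 on II and 7 on III. Chromosome V thus held 63.0% of the members against 24.3% of all protein-coding genes. For 134 members (52.8%), a protein-coding gene directly next to them on the chromosome was another member. Reads of neighbouring members of similar sequence can be shared out between them by the authors' quantification, so values of such neighbours are less certain than those of isolated genes.

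Most members were expressed weakly at this stage. The median of the members' mean levels was 2.52 FPKM (quartiles 0.267 and 5.42), against 7.45 FPKM for all protein-coding genes. Only 6 members averaged 20 FPKM or more, 30 averaged 10 or more, 73 averaged 5 or more and 161 averaged 1 or more, while 45 stayed under a mean of 0.1. In terms of libraries, 134 members reached 1 FPKM in all 18, 41 in 2 to 17, 8 in a single library and 71 in none. The members on chromosome V had a median of 1.89 FPKM and the members elsewhere 4.97 FPKM. The same order held for protein-coding genes in general, at 2.43 FPKM on V and 9.58 FPKM elsewhere. By chromosome, the members' median was 7.02 FPKM on X, 6.44 on IV, 5.78 on II, 3.07 on III and 0.982 on I.

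**Figure D1:**
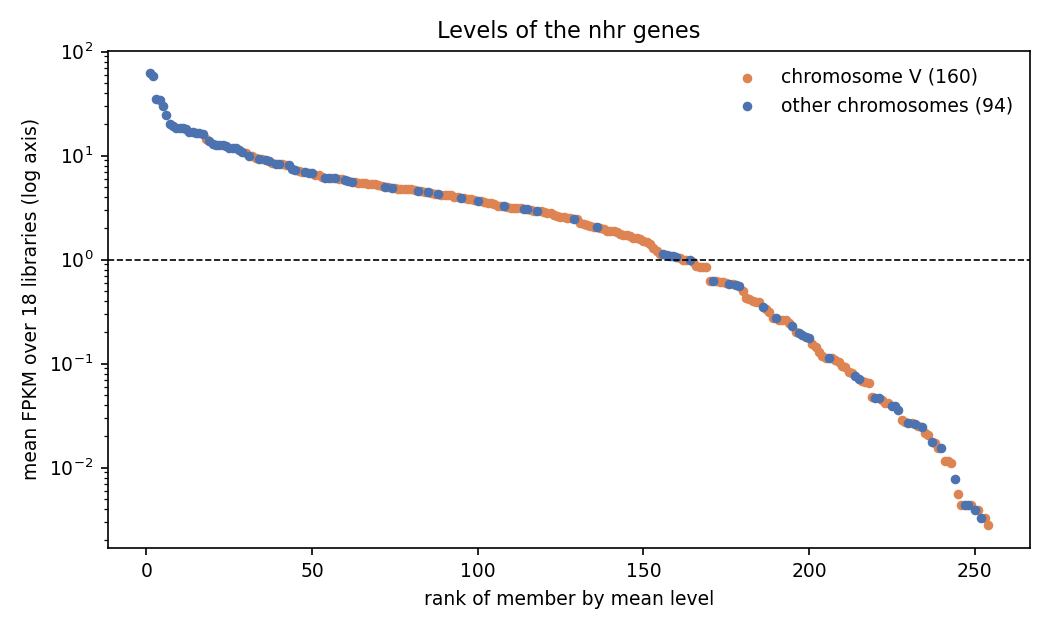
Mean expression of the 254 members over the 18 libraries, ranked from highest to lowest, on a log axis of FPKM. Each point is 1 member, coloured by whether it lies on chromosome V, and the dashed line marks 1 FPKM. The 12 most abundant members hold 30.4% of the family's summed FPKM, and 161 members lie at or above the line.

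In single libraries, between 151 and 172 members were detected at 1 FPKM or more, with a median of 159. The family's FPKM summed to between 1017.3 and 1506.5 per library, which was 0.117% to 0.164% of the library total. In wild type the sum lay between 1023.8 and 1160.9, in the nhr-68 mutants between 1017.3 and 1251.8, and in the nhr-10 mutants between 1153.5 and 1506.5. The highest sums were in the second untreated nhr-10 library (1506.5) and the second nhr-10 library on B12 with propionate (1486.1). Genes in general were also listed higher there, with median ratios to each gene's geometric mean of 1.16 and 1.09, the highest of all libraries. The family's share of the library total was 0.164% and 0.163% in them.

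The most abundant member was nhr-97, with a mean of 61.7 FPKM and a range from 42.97 to 98.1. It was followed by nhr-49, a receptor that drives fatty acid oxidation and desaturation and the fasting response, at 57.55 FPKM (36.74 to 72.81). The ranges of these 2 overlap widely, and together they held 10.2% of the family's FPKM. Next came nhr-31, needed for the vacuolar ATPase of the excretory canal, at 35.3 FPKM (25.49 to 43.64), nhr-8, a receptor in xenobiotic resistance and cholesterol balance, at 34.4 FPKM (22.66 to 61.46), and nhr-23, the ROR-like receptor that drives moulting, at 30.2 FPKM (23.06 to 51.07). These 3 were not separated by their ranges either. The partner of nhr-49 in lipid control, nhr-66, averaged 24.7 FPKM. The remaining 6 of the top 12 lay close together, namely nhr-1 at 19.9, nhr-14, which acts in iron uptake and pathogen response, at 19.4, nhr-45, which acts in detoxification when mitochondria fail, at 18.4, nhr-35 at 18.4, nhr-69, an HNF4-like receptor that controls an insulin-like peptide, at 18.3, and nhr-41, the counterpart of the mammalian testicular receptors TR2 and TR4, at 18.1 FPKM. Of these 12, nhr-97 and nhr-41 were called in at least 1 of the 13 two-group comparisons, and the other 10 in none. Overlaps with a gene on the opposite strand were annotated for nhr-8 (F33D4.6), nhr-66 (serp-1.2) and nhr-69 (inx-20), whose levels may include its reads.

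The members with counterparts outside nematodes ranged from nhr-8 at the top to nhr-111. Beside nhr-8, nhr-23 and nhr-41, nhr-48 averaged 9.96 FPKM, nhr-91, the counterpart of the mammalian germ cell nuclear factor, 7.02, nhr-85, the counterpart of fly E75 and mammalian Rev-erb, 6.84, nhr-25, the FTZ-F1 and SF-1 counterpart in moulting and epidermal development, 3.26, nhr-6, the NR4A counterpart needed for the spermatheca, 3.07, and nhr-67, the tailless counterpart in neuronal and vulval development, 1.13 FPKM. At the low end, nhr-239 averaged 0.177 FPKM, and nhr-111 was listed at 0 in 17 libraries and at 0.08 in the other one. Of these 11 genes, 9 were tested and nhr-41 was the one called in any of the 17 comparisons. The moulting and development list added nhr-40, needed for muscle development, at 11.9 FPKM and nhr-60, which acts in the seam cells, at 1.04 FPKM, neither of them called.

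In the lipid and energy list of 8 genes, all tested, nhr-80, which controls fatty acid desaturase genes, averaged 13.7 FPKM, nhr-64, which affects fat storage, 11.2, nhr-76, which controls lipase activity in the gut, 7.33, nhr-62, needed for the long life of diet-restricted animals, 3.90, and nhr-13, another partner of nhr-49, 3.1 FPKM. Of this list nhr-62 was called, in the nhr-10 mutants, and no other gene. The smallest adjusted p of nhr-80 belonged to wild type on B12 with propionate against untreated, where its libraries were at 12.1 and 11.93 against 19.89 and 18.31 FPKM (log2 difference -0.63, limma adjusted p = 0.0913). In the stress, xenobiotic and pathogen list of 4, nhr-86, a sensor of pathogen metabolites, averaged 14.4 FPKM and nhr-57, a target of the hypoxia factor HIF-1, 4.33 FPKM. Here nhr-57 was called, again in the nhr-10 mutants, and nhr-8, nhr-45 and nhr-86 were not.

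**Figure D2:**
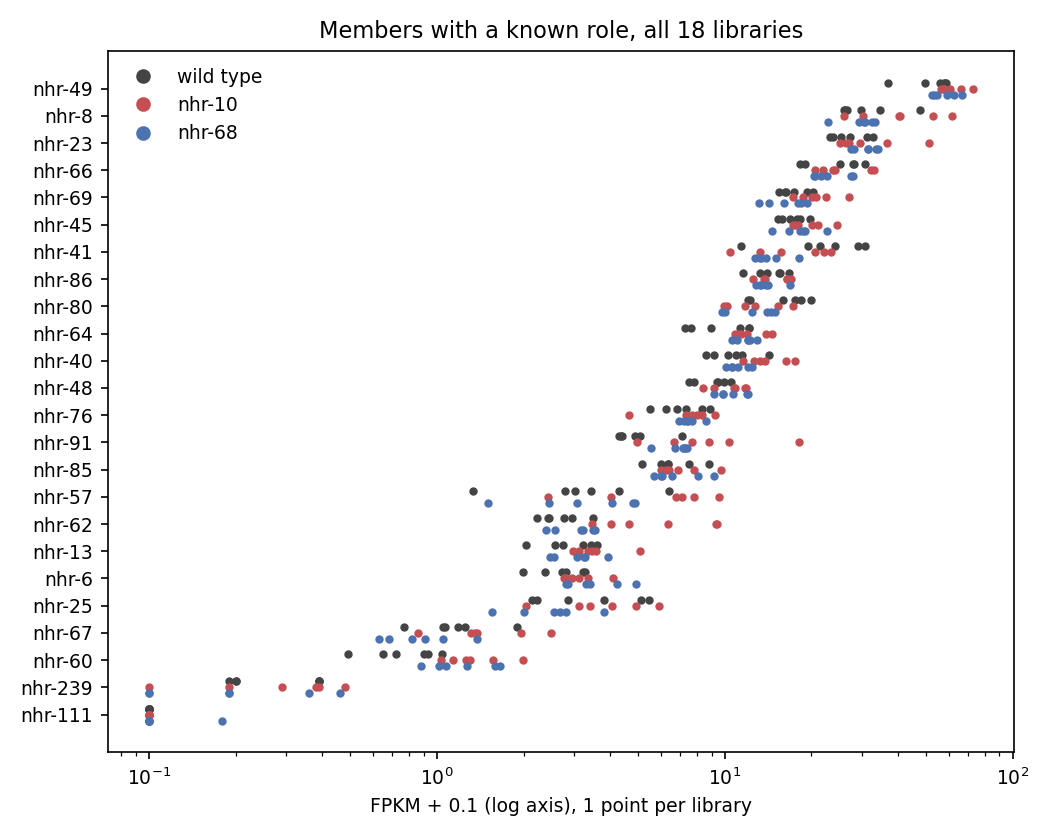
Expression of the members with known roles in each of the 18 libraries, on a log axis of FPKM + 0.1. Each row is 1 gene and each point 1 library, coloured by genotype. The rows run from nhr-49, at 36.74 FPKM or more in every library, to nhr-111, listed at 0 in 17.

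The 13 two-group comparisons gave 43 calls in 25 members, and 5 of the 43 stayed below the threshold whichever single library was left out. These were nhr-156 on B12 in both mutants, nhr-101 and nhr-62 in nhr-10 mutants given B12 with propionate, and nhr-7 in the nhr-68 mutants on B12. Comparisons that use the same libraries are not independent of each other. The B12 and the propionate response of a genotype share its B12 libraries, and both mutants were set against the same wild-type libraries.

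**Figure D3:**
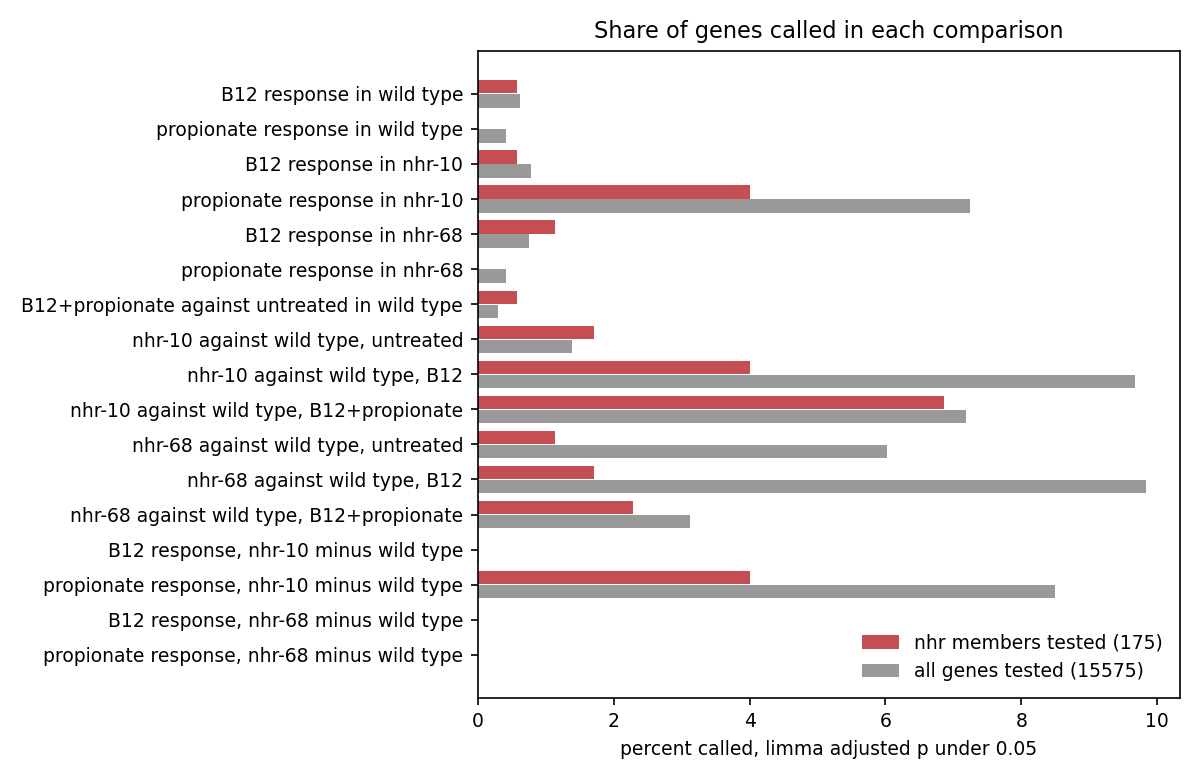
Percent of the tested members and of all 15575 tested genes that limma called at an adjusted p under 0.05 in each of the 17 comparisons. The largest gap is 1.71% of members against 9.84% of all genes for the nhr-68 mutants on B12, while nhr-10 mutants given B12 with propionate show 6.86% against 7.19%. In comparisons that use the nhr-10 libraries on B12 with propionate, the members' share includes nhr-270, which has no valid test there.

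The first question was how the family responded to vitamin B12, the signal known to switch off the alternative propionate breakdown pathway. The clearest response was that of nhr-156 (chromosome V, 3906106 to 3908452, plus strand, build WBcel235), which fell on B12 in all 3 genotypes. In wild type it went from 5.84 and 7.13 FPKM untreated to 1.97 and 1.63 on B12. Among nhr-10 mutants it went from 8.69 and 9.91 to 1.55 and 1.67, and in the nhr-68 mutants from 8.03 and 8.23 to 1.13 and 0.78. Every untreated library lay above every library on B12. The log2 differences were -1.42 ± 0.219 (SE, n = 2 per group, limma adjusted p = 0.0111) in wild type, -1.98 ± 0.219 (limma adjusted p = 0.00073) in the nhr-10 mutants and -2.23 ± 0.219 (limma adjusted p = 0.000374) in the nhr-68 mutants. The mutants' B12 responses were not called different from that of wild type, with a difference of -0.56 (limma adjusted p = 0.63) for nhr-10 and -0.81 (limma adjusted p = 0.734) for nhr-68. The wild-type call passed in 1 of 4 fits without a single library, with a highest adjusted p of 0.127. Both mutant calls passed in 4 of 4.

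Adding propionate to B12 left nhr-156 low, though in the nhr-68 mutants both libraries with propionate lay above both on B12 alone. Its libraries were at 2.06 and 1.33 FPKM in wild type, 1.32 and 2.57 in the nhr-10 mutants and 2.7 and 2.28 in the nhr-68 mutants. Against B12 alone the log2 differences were -0.07 in wild type (95% interval -0.54 to 0.41), 0.14 in the nhr-10 mutants (limma adjusted p = 0.754) and 0.84 in the nhr-68 mutants (limma adjusted p = 0.197), none of them called. In wild type nhr-156 on B12 with propionate remained below untreated (log2 difference -1.48, limma adjusted p = 0.0113), and this call passed in 1 of 4 fits without a single library. The same order of treatments, high without B12 and low with it, was shown by nhr-114, a receptor left out of the family by the rule. Untreated wild type had 162.22 and 137.64 FPKM of it, wild type given B12 had 29.45 and 49.52, and the addition of propionate gave 26.23 and 34.83.

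In wild type nhr-156 was the only member called on B12 of 175 tested, where 0.616% of all genes were called (0.34% lower). An unadjusted p under 0.05 was reached by 11 members (6.29%), beside 8.75% of all genes. In the nhr-10 mutants nhr-156 was again the only member called, against 0.783% of all genes (0.591% lower). Of the receptors left out by the rule, nhr-68 (-3.51, limma adjusted p = 0.000625) and nhr-114 (-2.39, limma adjusted p = 0.0033) were called lower in that contrast, and nhr-10 was not. In the nhr-68 mutants 2 members were called, against 0.751% of all genes (0.501% lower). The second was nhr-137, which fell from 13.22 and 20.47 FPKM untreated to 5.09 and 5.47 on B12 (log2 difference -1.48 ± 0.306, limma adjusted p = 0.0488). That call passed in 0 of 4 fits without a single library. In wild type nhr-137 went from 11.76 and 11.44 to 5.65 and 3.94 FPKM (log2 difference -1.14, limma adjusted p = 0.198), without overlap but not called. Across the tested members the median log2 difference on B12 was -0.101 in wild type, -0.181 in the nhr-10 mutants and -0.109 in the nhr-68 mutants, beside -0.077, -0.117 and -0.06 over all genes. Of the 175 members, 74 (42.3%) had both B12 libraries of the nhr-10 mutants below both untreated ones, beside 29.9% of all genes. The share was 28.0% beside 25.1% in wild type and 34.9% beside 25.6% in the nhr-68 mutants. Of the 10 moulting markers 0 were called on B12 in any genotype. Their median log2 differences were -0.56 in wild type, -1.251 in the nhr-10 mutants and -0.437 in the nhr-68 mutants. In the nhr-10 mutants their sums were 286.4 and 510.7 FPKM on B12 against 787.8 and 803.5 untreated, and their part was not tested. Rescaling the libraries by median ratios brought the median of all genes in the nhr-10 mutants to 0.006 and that of the members to -0.08. In wild type on B12 with propionate against untreated, nhr-156 was the 1 member called, beside 0.295% of all genes (0.167% lower).

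The next question was whether propionate, given on top of B12, moved the family. In wild type limma called 0 members, beside 0.411% of all genes. At an unadjusted p under 0.05 there were 13 members (7.43%), beside 19.0% of all genes. The smallest adjusted p was that of nhr-101 (0.0705). Leaving out the first wild-type library on B12 with propionate gave 1 call, nhr-41, as lower with propionate. For the nhr-68 mutants limma called 0 members too, beside 0.417% of all genes. Here 20 members (11.4%) had an unadjusted p under 0.05, beside 9.28% of all genes. The smallest adjusted p there was that of nhr-232, at 6.59 and 7.74 FPKM on B12 and 3.55 and 2.97 with propionate (log2 difference -0.94, limma adjusted p = 0.0938). Among members whose libraries did not overlap, nhr-53 showed the largest difference in wild type, from 2.44 and 0.44 to 6.55 and 3.94 FPKM (1.46 on the log2 scale, limma adjusted p = 0.126). Among nhr-68 mutants it was nhr-259, from 1.74 and 0.08 to 3.27 and 2.77 FPKM (1.22, limma adjusted p = 0.404).

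On propionate 7 members were called in the nhr-10 mutants (4.0% of those tested), beside 7.24% of all genes. Of these, 6 were higher (4.55% of all genes) and 1 was lower (2.68% of all genes). The 35 members at an unadjusted p under 0.05 were 20.0% of those tested, beside 24.2% of all genes. The longevity receptor nhr-62 rose from 3.36 and 4.54 FPKM on B12 to 9.33 and 9.19 with propionate (1.06 ± 0.215, limma adjusted p = 0.0183). The others that rose were nhr-58 (2.43 and 4.03 to 7.25 and 10.02 FPKM, limma adjusted p = 0.0192), nhr-11 (1.71 and 3.85 to 8.22 and 7.01 FPKM, limma adjusted p = 0.028), nhr-161 (1.06 and 1.41 to 3.26 and 3.25 FPKM, limma adjusted p = 0.0324) and nhr-15 (2.02 and 1.82 to 3.78 and 3.87 FPKM, limma adjusted p = 0.0419). The sixth, nhr-270, was at 0.12 and 0.29 FPKM on B12 and at 1.12 and 1.32 with propionate. Those 2 libraries with propionate were the only ones of the 18 at 1 FPKM or more, so nhr-270 entered the test through the group in which it is high. It is given as values with no test here and in the other contrasts that use this group, and without it 5 members rose. The member that fell was nhr-55, from 8.7 and 7.8 to 3.15 and 3.91 FPKM (-1.03, limma adjusted p = 0.035).

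These calls rested on few libraries. Without the second nhr-10 library on B12 with propionate 0 members were called, and likewise 0 without the first nhr-10 library on B12. Without the second nhr-10 library on B12 there were 4 and without the first on B12 with propionate 8. With another scaling 5 were higher and 2 lower. Markers of other processes moved in the same contrast. Of 10 moulting markers 6 were called higher, with summed levels of 973.1 and 1360 FPKM with propionate against 286.4 and 510.7 on B12, and 5 of 5 yolk protein genes were called lower, with sums of 1171.3 and 84.4 against 7672.3 and 3169.2 FPKM. Their part in the members' differences was not tested.

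Larger in log2 terms but not called were nhr-234 (3.2 and 4.62 to 9.13 and 23.49 FPKM, 1.70, limma adjusted p = 0.0826) and nhr-21 (18.11 and 15.44 to 34.4 and 55.59 FPKM, 1.34, limma adjusted p = 0.0681). Their replicates differed within the propionate group, and their SE, which draws on all 9 groups, was 0.553 and 0.409. The median log2 difference of the members was 0.158, beside 0.045 over all genes.

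Whether propionate acted differently in the nhr-10 mutants than in wild type was tested as the difference of the responses. Limma called 7 members (4.0% of those tested), beside 8.49% of all genes, 4 with a more positive response in the mutants (3.53% of all genes) and 3 with a more negative one (4.96% of all genes). The hypoxia target nhr-57 was at 3.32 and 6.28 FPKM on B12 and 2.92 and 1.23 with propionate in wild type, and at 3.94 and 2.33 against 7.01 and 7.72 in the mutants (difference 1.97, limma adjusted p = 0.0394). The TR2 and TR4 counterpart nhr-41 went from 24.06 and 30.67 to 21.27 and 11.25 FPKM in wild type and from 13.14 and 10.37 to 23.36 and 22.05 in the mutants (1.67 ± 0.385, limma adjusted p = 0.033). For nhr-15 the difference was 0.99 (limma adjusted p = 0.0438). The 4 include nhr-270, with a fitted difference of 1.27 and no valid test, and without it 3 remain.

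The response was more negative in the mutants for nhr-55, at 3.94 and 2.83 FPKM on B12 and 3.81 and 6.48 with propionate in wild type (difference -1.5, limma adjusted p = 0.0353). It was so for nhr-34, which went from 8.99 and 9.6 to 12.67 and 13.72 FPKM in wild type and from 14.49 and 13.88 to 11.07 and 10.37 in the mutants (-0.84, limma adjusted p = 0.0378). The same holds for nhr-152, with 2.03 and 1.62 against 3.2 and 3.07 FPKM in wild type and 2.97 and 3.81 against 2.15 and 2.62 in the mutants (-0.93, limma adjusted p = 0.0386). In nhr-34, nhr-152, nhr-57 and nhr-41 the wild-type and mutant libraries moved in opposite directions, without overlap between B12 and propionate in either genotype. None of the 7 calls passed in every fit without a single library, and 0 members were called without the second wild-type library on B12, the second wild-type library with propionate, the first nhr-10 library on B12 or the second nhr-10 library with propionate. In this difference 1 of 10 moulting markers was called in each direction, and 5 of 5 yolk genes, 3 of 7 oocyte and germline markers and 2 of 9 sperm markers were called with a more negative response in the mutants, and their part was not tested. For the B12 response limma called 0 members different between the nhr-10 mutants and wild type, beside 0.0257% of all genes. Between the nhr-68 mutants and wild type it also called 0, beside 0.00642%. At an unadjusted p under 0.05 there were 6 members (3.43%, beside 8.82% of all genes) and 5 members (2.86%, beside 5.7%). For the propionate response of the nhr-68 mutants limma called 0 members (0.0% of all genes). There 18 members (10.3%) had an unadjusted p under 0.05, beside 11.4% of all genes.

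**Figure D4:**
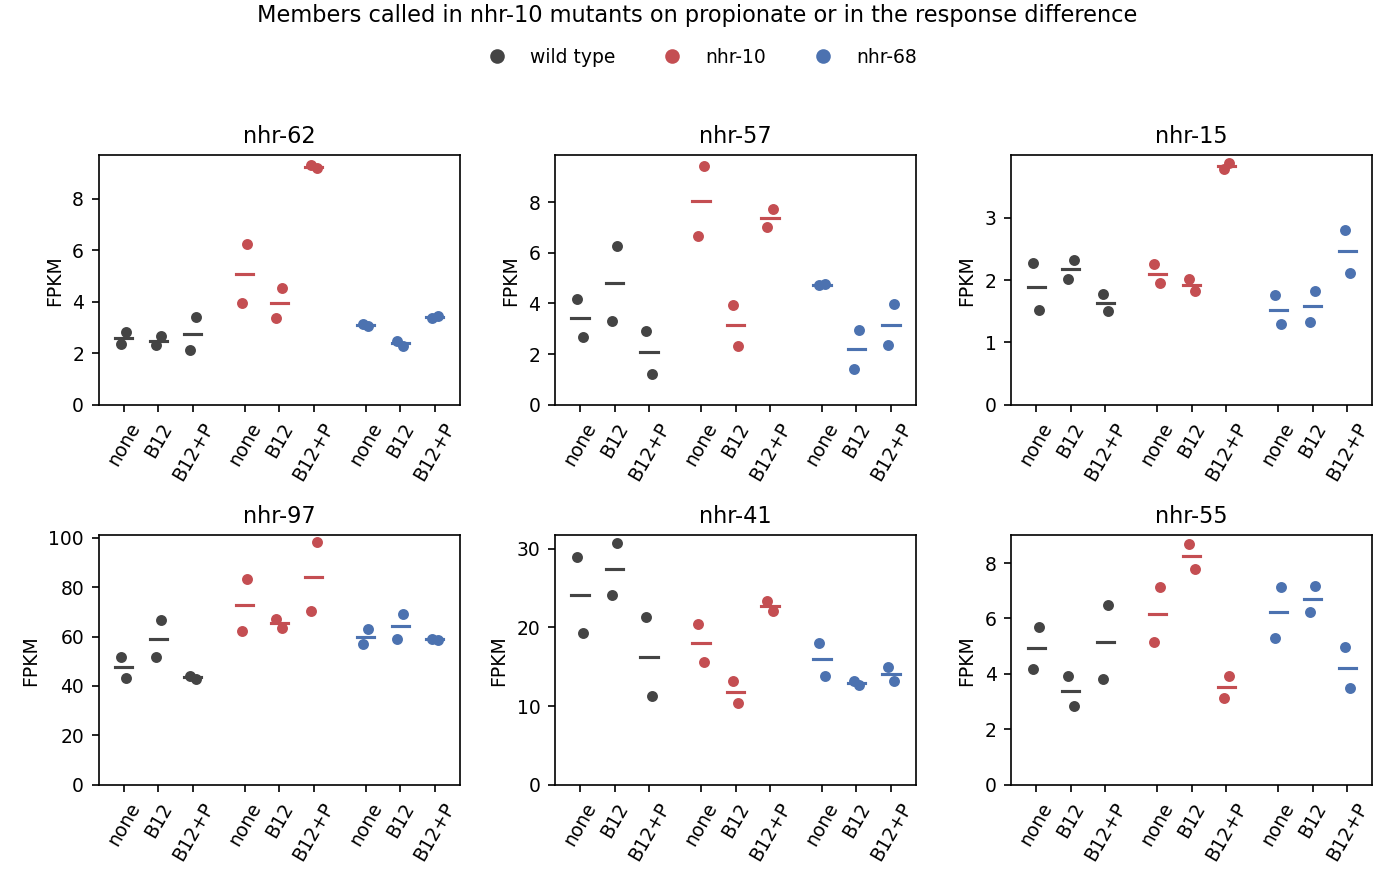
FPKM of 6 members, nhr-62, nhr-57, nhr-15, nhr-97, nhr-41 and nhr-55, in the 9 groups. Points are libraries and lines group means of 2. With B12 and propionate, the nhr-10 mutants hold nhr-62 at 9.33 and 9.19 FPKM, above the other 16 libraries, and nhr-55 at 3.15 and 3.91.

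The remaining comparisons asked which members differed between the nhr-10 or nhr-68 mutants and wild type at each treatment. One member, nhr-101 (chromosome V, 11570476 to 11572549, plus strand), was called lower than in wild type in both mutants, at every treatment except B12 alone in the nhr-68 mutants. In the order untreated, B12, B12 with propionate, the wild-type libraries were at 21.19 and 17.69, 8.12 and 9.55, and 21.82 and 15.46 FPKM. The nhr-10 mutants were at 7.82 and 10.21, 3.97 and 4.74, and 5.72 and 6.72 FPKM in the same order. For the nhr-68 mutants the values were 7.29 and 8.46, 4.6 and 6.35, and 5.39 and 7.07 FPKM. At each treatment every wild-type library lay above every mutant library.

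The log2 differences of nhr-101 between the nhr-10 mutants and wild type were -1.03 without treatment (limma adjusted p = 0.0366), -0.88 on B12 (limma adjusted p = 0.0277) and, with propionate added, -1.43 ± 0.217 (limma adjusted p = 0.00209). Of these the last passed in 4 of 4 fits without a single library, the second in 1 and the first in 0. For the nhr-68 mutants they were -1.20 (limma adjusted p = 0.0112), -0.61 (limma adjusted p = 0.0944, not called) and -1.43 (limma adjusted p = 0.00624), of which the first passed in 1 of 4 such fits and the last in 2. Within wild type nhr-101 was at lower values on B12 (-1.05, limma adjusted p = 0.0527) and at higher values with propionate than on B12 (0.98, limma adjusted p = 0.0705), neither of them called. With propionate it differed from untreated by -0.07. In the mutants the propionate differences were 0.43 (nhr-10, limma adjusted p = 0.25) and 0.16 (nhr-68, limma adjusted p = 0.842).

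On the chromosome, nhr-101 ends 891 bases before nhr-68 (chromosome V, 11573440 to 11575709, plus strand) begins, and it overlaps pms-2 on the minus strand. Whether the authors counted reads by strand is not given in the sources used here, so reads of nhr-101 and pms-2 cannot be told apart where they overlap. The log2 differences of pms-2 were -0.09, -0.07 and -0.74 in the nhr-10 mutants at the 3 treatments and -0.31, -0.10 and -0.35 in the nhr-68 mutants, with 1 call, that of -0.74. The neighbouring gene nhr-68 is itself the one deleted in the nhr-68 mutants, and in the nhr-10 mutants it was called lower on B12 (-2.44) and on B12 with propionate (-1.89) but not untreated (0.11). The part of either neighbour in the values of nhr-101 was not tested.

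In the other direction nhr-7 (chromosome IV, 11266265 to 11271362, minus strand) was called higher in both mutants, in 5 of the 6 comparisons. For wild type its libraries, in the same order of treatments, were at 0.77 and 1.17, 0.74 and 0.37, and 1.17 and 1.44 FPKM. The nhr-10 mutants had 4.68 and 3.07, 3.96 and 3.47, and 2.32 and 4.28 FPKM. The nhr-68 mutants had 3.58 and 6.23, 5 and 4.35, and 4.11 and 4.47 FPKM. The lowest of the 12 mutant libraries, at 2.32 FPKM, lay above the highest of the 6 wild-type libraries, at 1.44. Against wild type the log2 differences in the nhr-10 mutants were 1.29 (limma adjusted p = 0.0366), 1.61 (limma adjusted p = 0.00527) and 0.86 (limma adjusted p = 0.0757, not called). For the nhr-68 mutants they were 1.55 (limma adjusted p = 0.00975), 1.88 ± 0.272 (limma adjusted p = 0.00225) and 1.20 (limma adjusted p = 0.0367). Only that in the nhr-68 mutants on B12 passed in 4 of 4 fits without a single library. No treatment response of nhr-7 was called in any genotype.

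Another pattern was that of nhr-235 (chromosome II, 12640670 to 12642917, plus strand), which was called higher in the nhr-10 mutants at all 3 treatments. Wild type had 0.97 and 0.12, 0.74 and 0.5, and 1.21 and 0.12 FPKM. The nhr-10 mutants had 6.52 and 7.41, 5.01 and 3.34, and 5.27 and 11.12 FPKM, so that all 6 libraries lay above all 6 of wild type. The log2 differences were 2.42 ± 0.43 (limma adjusted p = 0.0156), 1.66 (limma adjusted p = 0.0328) and 2.47 (limma adjusted p = 0.00497), and they passed in 1, 1 and 2 of 4 fits without a single library. The nhr-68 mutants had nhr-235 at 1.78 and 0.57, 2.03 and 4.37, and 1.01 and 0.91 FPKM, with differences of 0.49 (limma adjusted p = 0.539), 1.32 (limma adjusted p = 0.0725) and 0.32 (limma adjusted p = 0.721) that were not called. The difference between the 2 mutants was not tested. Its neighbour nhr-234, another member, was at 11.71 and 14, 3.2 and 4.62, and 9.13 and 23.49 FPKM in the nhr-10 mutants and at 9.7 and 2.45, 5.5 and 2.83, and 5.84 and 1.94 in wild type. It was not called at any treatment.

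**Figure D5:**
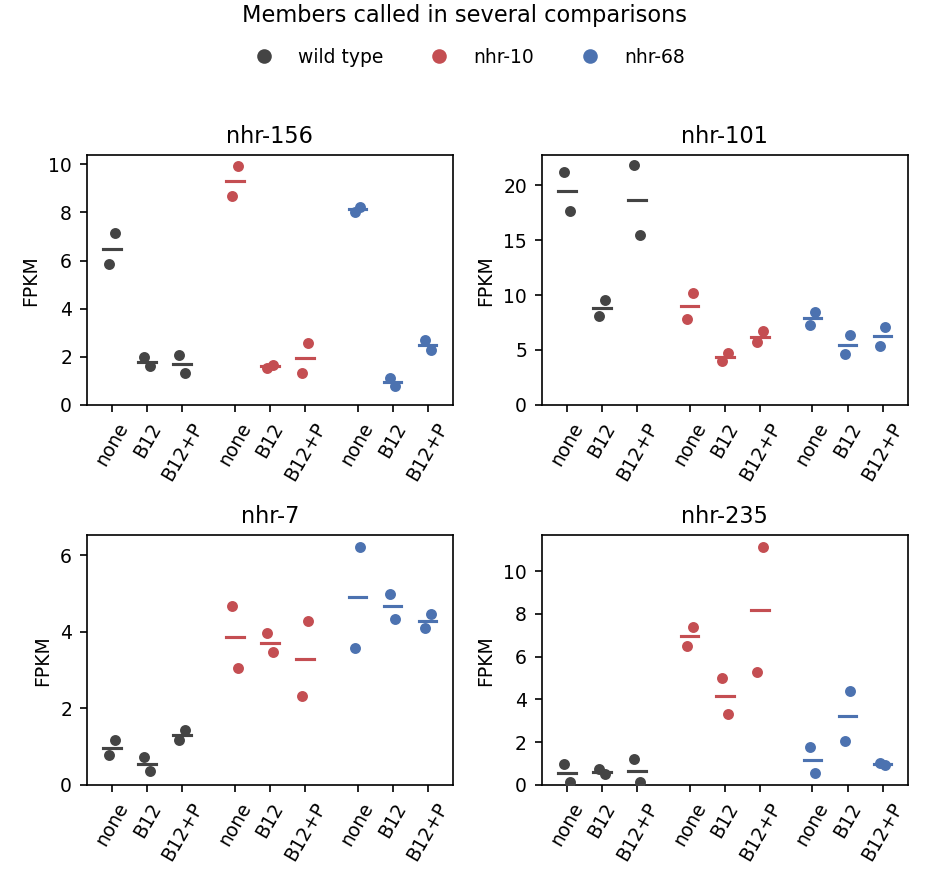
FPKM of nhr-156, nhr-101, nhr-7 and nhr-235 in the 9 groups. Points are libraries and lines group means of 2. In untreated animals nhr-156 lies at 5.84 FPKM or more and on B12 alone at 1.97 or less. Within each treatment nhr-101 is highest in wild type. The level of nhr-7 is 1.44 FPKM or less in wild type and 2.32 or more in both mutants. That of nhr-235 is 3.34 FPKM or more in the nhr-10 mutants against 1.21 or less in wild type.

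By count, the untreated nhr-10 mutants differed from wild type in 3 members, beside 1.39% of all genes, with 2 higher (nhr-235 and nhr-7, beside 1.1% of all genes) and nhr-101 lower (beside 0.295%). With the libraries rescaled by median ratios, 1 was higher and 1 lower. The median log2 difference of the members was 0.24, beside 0.108 over all genes, and after rescaling 0.126 beside -0.002. For 84 members (48.0%) both mutant libraries lay above both wild-type libraries, beside 31.3% of all genes. In this contrast 1 of 10 moulting markers, fbn-1, was called higher. The list had a median log2 difference of 0.952, and its part was not tested. Without the first untreated wild-type library 1 member was called, and without any of the other 3 libraries 0. Among members without overlap, nhr-17 had the second largest difference (5.15 and 6.51 FPKM in wild type, 6.65 and 50.73 in the mutants, limma adjusted p = 0.364). Its replicates also stood apart in other groups, such as 5.75 and 28.22 FPKM in untreated nhr-68 mutants.

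On B12 the nhr-10 mutants differed in 7 members (beside 9.68% of all genes), 5 of them higher (beside 6.52%) and 2 lower (beside 3.15%). After rescaling 4 were higher and 3 lower. Beside nhr-7, nhr-235 and nhr-101 these were nhr-55, at 8.7 and 7.8 FPKM against 3.94 and 2.83 in wild type (1.09, limma adjusted p = 0.023), nhr-34 (0.56, limma adjusted p = 0.0368), nhr-152 (0.63, limma adjusted p = 0.0353) and nhr-41. The last was lower, at 13.14 and 10.37 FPKM against 24.06 and 30.67 (-1.15, limma adjusted p = 0.0231). Without the second wild-type library or the first nhr-10 library 0 members were called, without the first wild-type library 4, and without the second nhr-10 library 7. Of 10 moulting markers 4 were called higher in this contrast and mlt-8 lower, with sums of 286.4 and 510.7 FPKM against 791.8 and 684.6 in wild type. Also higher were 3 of 7 oocyte and germline markers, 1 of 5 yolk genes and 1 of 6 intestine markers, and the part of these markers was not tested.

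With propionate added, the nhr-10 mutants differed from wild type in 12 members (6.86% of those tested, beside 7.19% of all genes). At an unadjusted p under 0.05 there were 43 members (24.6%, beside 23.7% of all genes). Of the 12 called, 10 were higher (beside 5.6% of all genes) and 2 lower (beside 1.59%). The largest was nhr-235, followed by nhr-57, at 7.01 and 7.72 FPKM against 2.92 and 1.23 (1.5 ± 0.36, limma adjusted p = 0.0258), and nhr-62, at 9.33 and 9.19 FPKM against 2.12 and 3.4 (1.47 ± 0.215, limma adjusted p = 0.00173). The most abundant member, nhr-97, was at 70.29 and 98.1 FPKM against 44.08 and 42.97 (0.92 ± 0.189, limma adjusted p = 0.012). The neighbours nhr-211, at 2.7 and 2.76 against 0.85 and 1.04 FPKM (0.94, limma adjusted p = 0.00934), and nhr-212, at 4.25 and 5.06 against 2.09 and 2.51 FPKM (0.78, limma adjusted p = 0.032), were both higher. So were nhr-15 (0.87, limma adjusted p = 0.0164), nhr-178 (0.69, limma adjusted p = 0.0224) and nhr-50 (0.66, limma adjusted p = 0.0306). The 10 include nhr-270, at 1.12 and 1.32 FPKM against 0.12 and 0, which entered the test through this group and leaves 9 without it. On the other strand nhr-178 overlaps F16B4.2, which was itself called higher in the nhr-10 mutants at all 3 treatments (1.15, 1.26 and 0.88 on the log2 scale), so reads of the 2 genes cannot be told apart where they overlap. Overlaps with another gene were also annotated for nhr-50 (C06C6.8), nhr-57 (lgc-1), nhr-152 (C12D5.9) and nhr-232 (sri-18). Of these partners lgc-1 lies on the same strand as its member and the others on the opposite strand. None of them was called between genotypes, lgc-1 and sri-18 being too low to test. Beside nhr-101, nhr-121 was lower, at 9.46 and 7.43 FPKM against 12.42 and 14.18 (-0.60, limma adjusted p = 0.0456).

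This count fell when the second nhr-10 library was left out and rose when the first was. Without the second 2 members were called, nhr-62 and nhr-101, and without the first nhr-10 library 22. Without the first wild-type library there were 10 and without the second 4. In this contrast 7 of 10 moulting markers were called higher, with summed levels of 973.1 and 1360 FPKM in the mutants against 687.4 and 325.6 in wild type, and 2 of 9 sperm markers were called lower. Their part was not tested. Outside the family rule, the steroid receptor gene daf-12 was the one called among 8 tested genes of the list of other nuclear receptors and coregulators (0.96 ± 0.206, limma adjusted p = 0.0147), at 18.55 and 25.07 FPKM against 9.17 and 12.18.

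For the nhr-68 mutants against wild type, 2 members were called in untreated animals, beside 6.02% of all genes, namely nhr-7 higher (beside 2.44%) and nhr-101 lower (beside 3.58%), and after rescaling 2 were higher and 1 lower. Of the markers, 3 of 9 for sperm were called lower and 1 of 10 for moulting higher in untreated animals, and their part was not tested. On B12, 3 were called, beside 9.84% of all genes, with nhr-7 and nhr-232 higher (beside 5.25%) and nhr-41 lower (beside 4.58%). For nhr-232 the libraries were at 6.59 and 7.74 FPKM against 4.68 and 3.2 (0.74, limma adjusted p = 0.0427), and for nhr-41 at 13.19 and 12.65 against 24.06 and 30.67 FPKM (-1.02, limma adjusted p = 0.0348). Both mutants thus had nhr-41 below the same 2 wild-type libraries on B12. Of 10 moulting markers 5 were called higher in this contrast and mlt-8 lower, with sums of 327.3 and 444.5 FPKM against 791.8 and 684.6 in wild type. Also higher were 2 of 7 oocyte and germline markers, 2 of 6 intestine markers and 3 of 5 yolk genes, the latter with sums of 9091.1 and 7126.1 FPKM against 787.8 and 614.7. Their part was not tested. Not called were nhr-5, at 11.26 and 12.84 FPKM against 4.67 and 5.86 (1.06, limma adjusted p = 0.0659), and, in untreated animals, nhr-53, at 4.02 and 8.05 against 1.34 and 2.95 FPKM (1.15, limma adjusted p = 0.141).

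On B12 with propionate 4 members were called in the nhr-68 mutants, beside 3.13% of all genes, 3 of them higher (beside 1.18%) and nhr-101 lower (beside 1.95%). Beside nhr-7 these were nhr-74, at 2.13 and 1.97 FPKM against 0 and 0.24 (1.45 ± 0.254, limma adjusted p = 0.0133), and nhr-245, at 2.69 and 2.47 against 0.46 and 0.66 FPKM (1.20, limma adjusted p = 0.0205). Both are weakly expressed, reaching 1 FPKM in 7 and 6 of the 18 libraries. In the nhr-10 mutants under the same treatment nhr-74 was listed at 0 in both libraries, and in untreated wild type it was at 1.64 and 1.71 FPKM. Of 10 moulting markers 4 were called higher in this contrast, with sums of 601.9 and 483 FPKM against 687.4 and 325.6, and 2 of 9 sperm markers were called lower, and their part was not tested. Without a single library the counts ran from 0 to 2, from 1 to 3 and from 0 to 3 at the 3 treatments in order. In the last, leaving out the first wild-type or the first nhr-68 library gave 0. The members' median log2 differences were 0.098, 0.073 and -0.005 at the 3 treatments, beside -0.017, 0.004 and -0.048 over all genes.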

How the data were processed

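RNA sequencing of whole L4 animals was summarised as FPKM per gene in 18 libraries. The FPKM values were used as the authors deposited them, and the submitters' processing notes name HISAT, Bowtie2, RSEM and the build WBcel235, without versions. Gene names and positions came from the Ensembl 115 annotation of that build; 208 identifiers had no entry. The members and lists were chosen with earlier results of these data known. limma 3.58.1 in R 4.3.3 was fitted to log2(FPKM + 1) with 9 group means and a mean-variance trend (9 residual and 3.6 prior degrees of freedom), for genes at 1 FPKM or more in at least 2 libraries, with Benjamini-Hochberg adjustment over all 15575. The steps were tested on simulated data. FPKM keeps no read counts, so no count model was used, and depth was approximated from the smallest steps between values after taking 30 bases off each transcript. Library totals differ because FPKM does not sum to a fixed number. Genes were named as the 12 most abundant members, every member called (the 10 smallest adjusted p where more), the 3 largest differences without overlap in each of 13 comparisons, and the role lists; nhr-121 and nhr-212 were added after their values were seen. Pairs by protein identity were not formed, because protein sequences were not used here. Alternatives were a pseudocount of 0.1, no filter, median-ratio scaling, only the compared groups, the replicate number as a block, and each library left out.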

Additional observations from a re-analysis of the deposited data

Results flagged for a closer look

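The propionate response differed between the nhr-10 mutants and wild type by limma's test of the difference itself in 7 members. That was 4.0% of the members tested, beside 8.49% of all genes, and the 7 include nhr-270. The log2 response in the mutants minus that in wild type was 1.97 for nhr-57 (adjusted p = 0.0394), 1.67 for nhr-41 (adjusted p = 0.033) and 0.99 for nhr-15 (adjusted p = 0.0438). It was -1.5 for nhr-55 (adjusted p = 0.0353), -0.93 for nhr-152 (adjusted p = 0.0386) and -0.84 for nhr-34 (adjusted p = 0.0378). For nhr-270 it was 1.27, but this gene reached 1 FPKM in 2 libraries alone, both of the nhr-10 mutants on propionate, so it was tested because it is high there and its p is no evidence. Of 8 fits that each left out a single library, nhr-41 passed in 4, nhr-34 and nhr-55 in 3, nhr-57 in 2, and nhr-152 and nhr-15 in 1.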

How the results depend on the processing

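The 50 single calls kept their direction under every alternative run, but many were lost: 46 on only the compared groups, 14 with no filter, 7 with a pseudocount of 0.1, 3 with median-ratio scaling and 1 with the replicate block, and 150 of the fits without a single library against 78 that kept the call. The 50 include the calls of nhr-270, which have no valid test. A pseudocount of 0.1 also enlarged the differences of weak members, such as nhr-74 on B12 with propionate in the nhr-68 mutants from 1.45 to 3.54 and nhr-235 in untreated nhr-10 mutants from 2.42 to 3.86. Fitted on only the compared groups, which leaves fewer degrees of freedom, the count fell to 0 for the B12 response in wild type and in the nhr-10 mutants, the propionate response in the nhr-10 mutants, wild type on B12 with propionate against untreated, the nhr-10 mutants against wild type on B12 and on B12 with propionate, the nhr-68 mutants against wild type both without treatment and with B12 plus propionate, and the difference of the propionate response between nhr-10 mutants and wild type; it was 1 for the B12 response in the nhr-68 mutants and for the untreated nhr-10 mutants. With no filter it was 2 for the B12 response in wild type, 11 for the propionate response in the nhr-10 mutants, 1 for the B12 response in the nhr-68 mutants, 4 for the untreated nhr-68 mutants, 1 for the nhr-68 mutants on B12 and 2 for the difference of the propionate response in the nhr-10 mutants. A pseudocount of 0.1 gave 1 for the B12 response in the nhr-68 mutants, and median-ratio scaling gave 2 for wild type on B12 with propionate against untreated. The cause was not tested. At 0.5 FPKM a median of 175.5 members were detected per library and at 5 FPKM 69.5.

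With the replicate number as a block, the count was 2 for the B12 response in wild type, where nhr-101 joined nhr-156, 11 for the propionate response in the nhr-10 mutants and 1 for the B12 response in the nhr-68 mutants. The labels do not say that a number marks a shared batch. The differences between the replicates correlated at -0.204 to 0.563 between the groups compared. The highest value was that of wild type on B12 with propionate and untreated wild type. Whether libraries with the same number share a batch was not tested.

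Leaving out each library in turn, the count ran from 0 to 1 for the B12 response in wild type, 0 to 1 for propionate in wild type, 1 to 2 for B12 and 0 to 8 for propionate in the nhr-10 mutants, 1 to 1 for B12 and 0 to 0 for propionate in the nhr-68 mutants, and 0 to 1 for wild type on B12 with propionate against untreated. Against wild type it ran from 0 to 1, 0 to 7 and 2 to 22 for the nhr-10 mutants and from 0 to 2, 1 to 3 and 0 to 3 for the nhr-68 mutants, at the 3 treatments in order. For the response differences it ran from 0 to 7 for propionate in the nhr-10 mutants and stayed at 0 in the others. With 2 libraries a group, a call lost here also reflects the fewer samples. The 79 members under the filter were tested in the fit with no filter alone, at levels of few fragments.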
